A study of Mus musculus with 8 samples.

Results

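Gene expression at 24h was compared with gene expression at 6h in mouse leukaemia cells in which the transcription factor KLF4 can be switched on. The comparison rests on 4 of the 8 RNA sequencing libraries of the study, namely replicates 1 and 2 at 6h and replicates 1 and 2 at 24h. They were chosen by their time labels, with no use of measured values, and neither side is the 0h group. All groups share the same cells: MLL-AF9 acute myeloid leukaemia cells, positive for GFP, with the TetO-Klf4 transgene from which doxycycline induces Klf4. The cells were sorted from leukaemic mice of a strain labelled C57BL/7, with bone marrow given as tissue. The labels do not give the event from which the hours count, the age of the mice, the promoter behind the doxycycline-responsive activator, or whether the 2 libraries of a time came from separate mice. P-values therefore rest on the spread between libraries, and part of that spread may be technical. Control cells lacking TetO-Klf4 but given doxycycline were not analysed here, so time, doxycycline and Klf4 cannot be told apart. The comparison asks what went on changing after the 6h libraries. The 12h libraries were then used to place each change between both times.

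MLL-AF9 is a fusion of the histone methyltransferase gene Kmt2a with Mllt3. It keeps myeloid progenitors in a self-renewing state, in part through the HOXA cluster and Meis1. KLF4 is a zinc finger transcription factor that binds GC-rich and CACCC-like sites, is known in blood for driving monocyte maturation, and restrains the cell cycle in many tissues. The integrated stress response, which figures largely below, is a translational control pathway: stress kinases phosphorylate the initiation factor eIF2, general translation falls, and the messenger of ATF4 is translated more. ATF4, paired with C/EBP proteins, then switches on genes for amino acid synthesis, amino acid import and tRNA charging, together with feedback genes that end the response. Granulocyte maturation proceeds from progenitors with primary granules to cells with secondary and tertiary granules and late surface proteins such as Ly6g.

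Gene counts totalled 20944589 and 25706154 at 6h, and 26041347 and 24380981 at 24h. Expression is given as CPM, a gene's counts scaled to a common library total. For a gene with no counts in a library the upper limit is 3 counts, or 0.115 to 0.143 CPM, which covers counting error only. Fragments assigned to no gene rose from 5.81% and 6.60% at 6h to 9.04% and 9.27% at 24h. Their part in the results was not tested. Replicates differed by more than counting noise: chi-square divided by its degrees of freedom was 3.79 at 6h and 2.85 at 24h. The labelled cell type fitted its markers: Ptprc, Spi1, Cebpa, Hoxa9 and Meis1 were each above 100 CPM in all 4 libraries, whereas Csf1r stood at 0.622 to 1.54 CPM. Most markers of other cells were near 0, with exceptions in several lists. Of 8 B cell markers 3, Ms4a1 and Pax5 among them, had 0 counts in all 4 libraries, but Cd79b stood at 7.83 to 9.30 CPM and was not called. Of 8 T cell markers Cd3e, Cd3g and Cd4 had 0 counts. The 6 megakaryocyte and platelet markers summed to 11.4 CPM in both 6h libraries and 8.41 and 9.39 CPM at 24h, with Itga2b called lower (-0.43) and Ppbp at 2.88 to 3.96 CPM. The 8 erythroid markers summed to 2.26 to 2.80 CPM, 4 eosinophil markers to at most 0.902 CPM, 5 natural killer cell markers to at most 0.0768 CPM, and 6 stromal markers to at most 0.545 CPM. Of 5 endothelial markers, which summed to 142 to 160 CPM, nearly all signal was Pecam1, called lower (-0.17), and the T cell list changed only through Lck, which rose by 0.57 ± 0.13 (log2, SE). In bulk RNA, fewer cells of a type and less RNA per cell cannot be told apart.

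Between 6h and 24h many genes changed by a little, and the large changes were nearly all rises. Of 14263 genes tested, 4765 (33.4%) were called at an adjusted p under 0.05 in edgeR's quasi-likelihood test, 2470 higher at 24h (17.3%) and 2295 lower (16.1%). The median size of a called difference was 0.38 among rises and -0.23 among falls on the log2 scale, and the median over all genes was 0.004. At least 2-fold differences were found for 578 rises (4.05% of genes) and 86 falls (0.603%). Among the 9055 genes expressed at a mean of at least 3, or at least 4 at 1 time, on the log2 CPM scale, there were 43 such rises and 2 such falls. For 4733 of the 4765 called genes the 6h and 24h libraries did not overlap. Over all genes tested, 32.9% had both 24h libraries above both 6h libraries and 30.9% had both below. Rises made up 51.8% of calls with TMM scaling but 29.5% (1744 of 5910) when a GC and length correction also set the mean gene equal across libraries, which moved the median gene to -0.08. DESeq2 called 3160 genes, and a test against a fold of 1.5 called 319, of which 293 were rises.

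**Figure D1:**
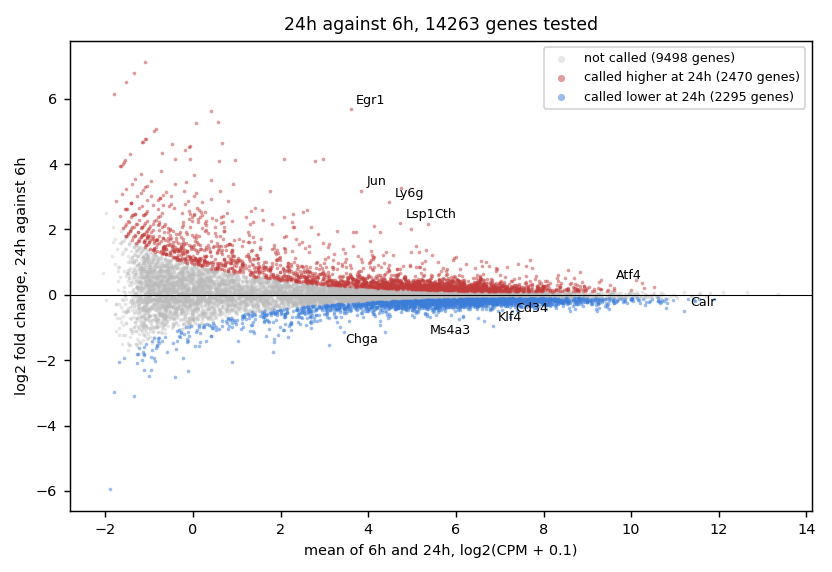
Log2 fold change of 24h against 6h (vertical axis) against the mean level of both times as log2(CPM + 0.1) (horizontal axis), 1 point per gene tested, red where called higher, blue where called lower, grey where not called. Large differences lie mostly above the zero line, with Egr1 at 5.68 and Jun at 3.18, whereas Klf4 and Chga lie about 1 unit below it.

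Klf4 itself fell between the times compared. It stood at 2.71 and 4.42 CPM in the 0h libraries, 152 and 151 CPM at 6h, 114 and 111 CPM at 12h and 76.9 and 78.8 CPM at 24h (CPM from here on are scaled by TMM). Both 24h libraries were below both 6h libraries, a 1.94-fold fall (-0.96 ± 0.05 on the log2 scale, SE, edgeR adjusted p = 3.67e-17), and all 4 remained above the 0h libraries. Gene counts do not separate transgene transcripts from those of the mouse's own Klf4 gene (chr4:55527143-55532466, minus strand, build mm10). Every rise described below therefore took place while measured Klf4 fell.

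Among well expressed genes, with predicted genes and pseudogenes left out, Egr1 and Jun rose most. Egr1, an immediate early transcription factor, stood at 0.286 and 0.590 CPM at 6h and 22.1 and 24.9 CPM at 24h, a rise of 5.68 ± 0.19 (log2, SE, edgeR adjusted p = 1.58e-23). Jun, a subunit of the AP-1 transcription factor, went from 3.15 and 2.52 CPM to 24.4 and 26.7 CPM (3.18 ± 0.12). For both genes the lowest 24h library was several times the highest 6h library. Ly6g, a surface antigen of maturing neutrophils (chr15:75155240-75159126, plus strand), was at 4.77 and 6.02 CPM and then 38.6 and 39.2 CPM, a 7.14-fold rise. Lsp1, an actin-binding protein of leukocytes (chr7:142460809-142494867, plus strand), was at 10.1 and 9.01 CPM and then 43.8 and 43.2 CPM, a 4.58-fold rise. Cth, the cystathionine gamma-lyase that makes cysteine, rose 4.53-fold, from 13.8 and 15.9 CPM to 66.9 and 68.8 CPM. No 6h library of these genes overlapped a 24h library, which was a condition for naming them.

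Slc7a3, an importer of basic amino acids, rose from 6.92 and 6.37 CPM to 27.7 and 28.9 CPM. Lrp1, an endocytic receptor, rose from 12.7 and 12.0 CPM to 49.5 and 50.2 CPM, and Rhoc, a small GTPase that acts on actin, from 4.77 and 5.59 CPM to 20.9 and 18.9 CPM. Their log2 changes were 2.09 ± 0.10, 2.01 ± 0.08 and 1.93 ± 0.11. Igf2, an imprinted growth factor gene (chr7:142650766-142666816, minus strand), stood at 0 and 0.0460 CPM at 0h, 5.73 and 5.31 CPM at 6h and 20.97 and 20.67 CPM at 24h, and its rise after 6h was 1.92 ± 0.11. Ppp1r15a, which directs a phosphatase to eIF2 and so ends the stress response, rose by 1.93 ± 0.10 from 9.16 and 7.00 CPM to 30.3 and 30.8 CPM. Extl1, a glycosyltransferase of heparan sulphate, rose 3.14-fold. Aldh1l2, a mitochondrial folate enzyme, rose 2.81-fold, and Slc11a1, a metal transporter of phagocyte vesicles, 2.80-fold. Tppp3, a microtubule-binding protein, had the smallest of these 14 rises at 1.39 ± 0.13. The edgeR adjusted p of these 14 genes was at most 2.20e-10, and the direction of each held in all 19 alternatives. The genes were chosen for large, non-overlapping rises in these libraries, which the alternatives reuse. Neither result is therefore independent support.

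**Figure D2:**
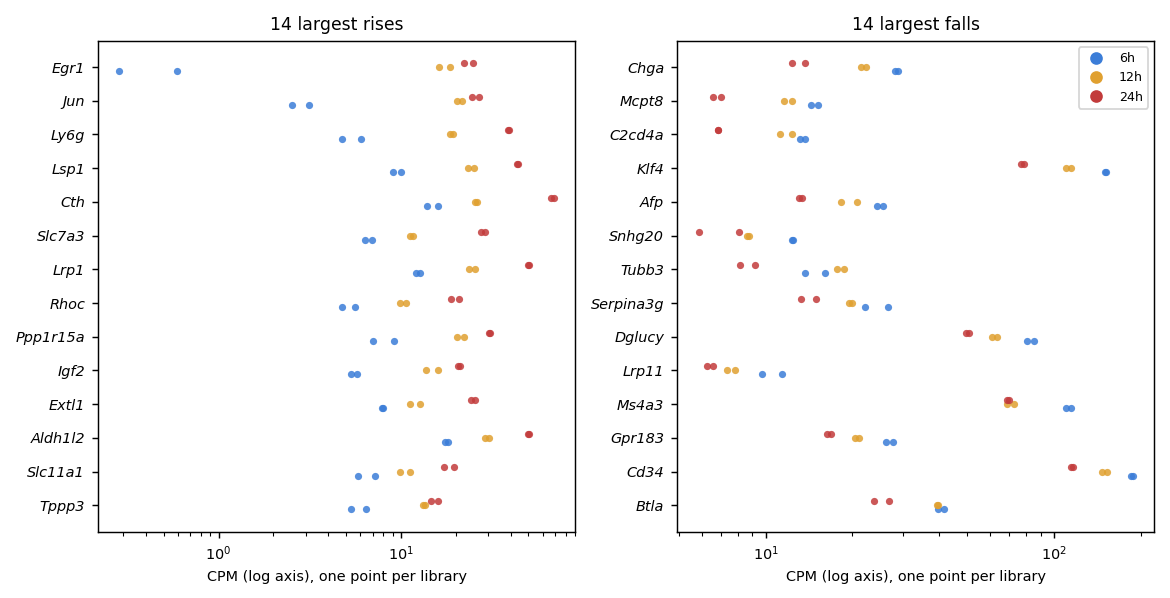
Level of the genes with the 14 largest rises (left) and the 14 largest falls (right) among well expressed genes, predicted genes and pseudogenes left out, as CPM on a log axis, 1 point per library, blue for 6h, orange for 12h and red for 24h. Red and blue points are apart for every gene, which the rule for choosing them required. The orange points mostly lie between them, except for Tubb3, where 12h is highest.

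Among well expressed genes the named falls were of mixed kinds. Chga, a granule protein of endocrine cells, went from 28.1 and 28.9 CPM at 6h to 13.7 and 12.3 CPM at 24h, a fall of 2.19-fold (-1.13 ± 0.08, edgeR adjusted p = 1.16e-13). Mcpt8, a protease of basophils, went from 14.4 and 15.2 CPM to 6.55 and 7.03 CPM, a 2.18-fold fall. Cd34, a surface glycoprotein of stem and progenitor cells, stood at 242 and 244 CPM at 0h, 186 and 188 CPM at 6h and 115 and 117 CPM at 24h, a fall of 0.69 on the log2 scale after 6h. Ms4a3, a membrane protein of granulocyte and monocyte progenitors, fell by 0.70, from 110 and 114 CPM to 69.0 and 69.7 CPM. The groups did not overlap for any of these, which was a condition for naming them.

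C2cd4a, a nuclear calcium-dependent protein, fell 1.97-fold, and Afp, the fetal serum protein alpha-fetoprotein, 1.89-fold. Dglucy, a mitochondrial D-glutamate cyclase, went from 85.3 and 81.0 CPM to 49.5 and 50.7 CPM. Gpr183, an oxysterol receptor that guides leukocyte migration, went from 27.7 and 26.2 CPM to 16.4 and 16.9 CPM. Btla, an inhibitory receptor of lymphoid and myeloid cells, went from 41.5 and 39.5 CPM to 23.8 and 26.7 CPM. For all 3 genes both 24h libraries were below both 6h libraries, again by the rule that named them. Serpina3g, a protease inhibitor, fell 1.73-fold and Lrp11 1.64-fold. Tubb3, a beta tubulin, was at 0.151 and 0.737 CPM at 0h, 13.7 and 16.1 CPM at 6h, 18.6 and 17.6 CPM at 12h and 9.16 and 8.12 CPM at 24h, so its fall of 0.79 came after 12h. The snoRNA host gene Snhg20 fell from 12.3 and 12.4 CPM to 8.06 and 5.86 CPM, and its 24h libraries differed most among these genes. Its fall was -0.82 ± 0.12, between -1.08 and -0.62 over the alternatives.

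The integrated stress response was the gene group with the most members higher at 24h. Of 53 names listed, 51 were tested, and 47 of these (92.2%, against 17.3% of all genes) were higher and 0 lower, with a median of 0.42 on the log2 scale. The count was 44 to 48 over the alternatives other than the test against a fold of 1.5, which called 15. Those not called were the tRNA synthetase genes Mars, Lars and Tars and the cysteine pathway gene Cbs, with log2 values from 0.06 to 0.46. Fgf21 did not pass the filter on low counts, and Mars1 is a second name, not in the annotation used, for Mars.

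All 13 regulators and feedback genes rose. Atf4, the transcription factor at the centre of the pathway, rose by little at the level of its messenger, from 638 and 676 CPM to 806 and 823 CPM (0.31 ± 0.04). Several of its known targets had larger changes. Trib3, a pseudokinase that restrains ATF4, went from 38.5 and 39.9 CPM to 89.8 and 86.1 CPM (1.16 ± 0.06, edgeR adjusted p = 1.09e-18). Chac1, which degrades glutathione, went from 19.0 and 17.3 CPM to 45.4 and 44.8 CPM (1.32 ± 0.07), and Ddit3, which encodes the stress factor CHOP, from 8.45 and 10.4 CPM to 18.7 and 19.6 CPM (1.01 ± 0.10). Atf3 rose by 1.47 ± 0.23, Atf5 by 0.62 ± 0.05, Nupr1 by 0.60 ± 0.08 and the mTORC1 inhibitor Sesn2 by 0.50 ± 0.05. Trib3 was already raised at 6h, since it stood at 9.05 and 9.48 CPM in the 0h libraries.

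Of the enzymes of amino acid synthesis, 12 of 13 rose, and all 9 transporters did. Beside Cth and Aldh1l2, the proline enzyme Pycr1 rose by 0.85 ± 0.07, the mitochondrial phosphoenolpyruvate carboxykinase Pck2 by 0.83 ± 0.04, the serine enzyme Psph by 0.79 ± 0.09 and the asparagine synthetase Asns by 0.52 ± 0.04. Phgdh and Psat1, which open the serine pathway, rose less, by 0.28 ± 0.04 and 0.16 ± 0.04. Slc7a11, the cystine importer, went from 26.5 and 24.8 CPM to 53.1 and 52.2 CPM, and its partner chain Slc3a2 rose by 0.59 ± 0.04. The glycine transporter Slc6a9 rose by 0.98 ± 0.09 and the neutral amino acid transporter Slc1a4 by 0.73 ± 0.06. Genes of tRNA charging and export had the smallest median of the 5 roles, 0.19, and 10 of 13 rose, led by Sars at 0.41 ± 0.04. The lipoprotein receptor Vldlr and the secreted factors Stc2 and Gdf15 rose by 1.31 ± 0.07, 0.90 ± 0.05 and 1.57 ± 0.55.

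**Figure D3:**
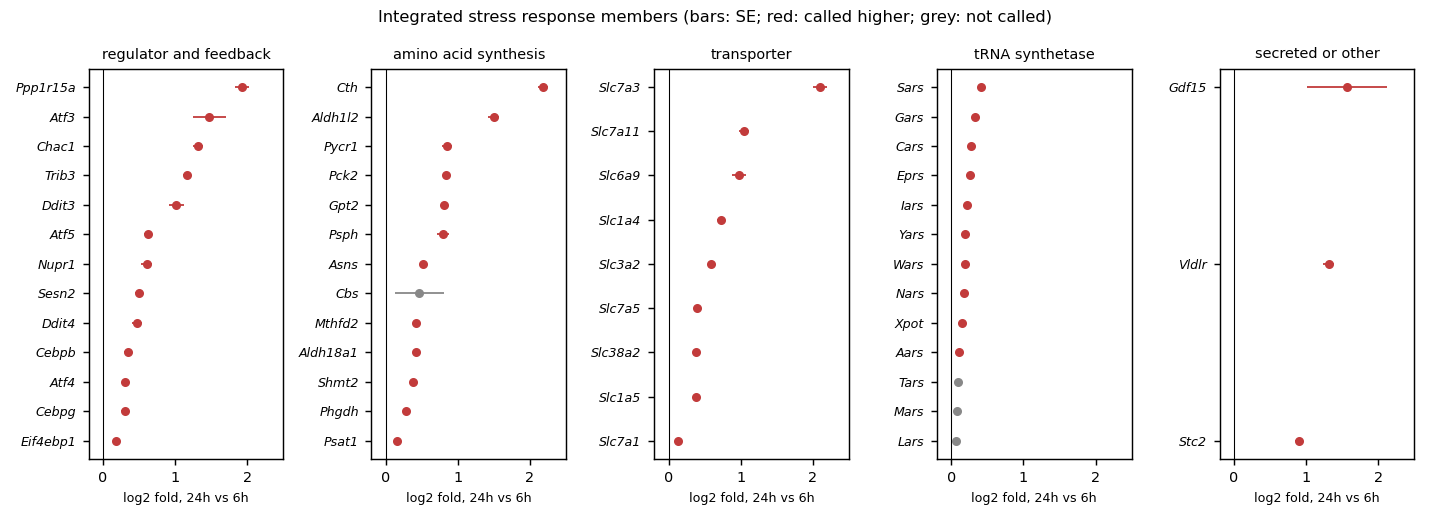
Log2 fold change of 24h against 6h (horizontal axis) for the 51 tested members of the integrated stress response, in 5 panels by role, 1 point per gene with its SE, red where called higher and grey where not called. Every point lies right of zero, with Cth at 2.18 and Slc7a3 at 2.09 farthest out and the tRNA synthetases closest to zero.

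ATF4 with C/EBP is known to bind the composite element TGATGNAA, and the promoters of the risen members were searched for it on both strands. A promoter here is the 300 bases from 250 before to 50 after an annotated start, from RefSeq on build GRCm38.p6, which matched 10090 of the 14263 genes tested. The element was present in 14 of 45 promoters (31.1%) of the risen members, in 14 of 38 genes with a promoter. It was present in 2.38% of the 12833 promoters of genes tested and in 3.97% of all 32851 promoters. Among all genes called higher it was in 3.67% of promoters, against 1.64% for genes called lower and 2.23% for those not called. The list was drawn from the known pathway of ATF4, and nearly all its members rose. Its own share therefore cannot separate the rise from membership. A match is a description of these letters, not evidence of binding. The stretches below carry it in capitals with up to 10 bases on either side, read on the strand that carries the motif. They are shown for 13 of the 14 genes that hold it.
Atf3 (chr1:191183426-191183453, plus strand): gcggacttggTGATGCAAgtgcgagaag
Chac1 (chr2:119351039-119351066, minus strand): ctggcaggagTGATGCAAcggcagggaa
Trib3 (chr2:152344029-152344056, plus strand): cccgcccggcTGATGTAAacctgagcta
Slc7a11 (chr3:50443662-50443689, minus strand): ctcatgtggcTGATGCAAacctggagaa
Slc7a11 (chr3:50443643-50443670, plus strand): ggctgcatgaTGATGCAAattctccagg
Asns (chr6:7693215-7693242, minus strand): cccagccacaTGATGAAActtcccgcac
Nupr1 (chr7:126625563-126625590, plus strand): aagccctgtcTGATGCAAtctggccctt
Slc1a4 (chr11:20332700-20332727, plus strand): aggctggagaTGATGCAAcgcaggaggc
Pycr1 (chr11:120643834-120643861, minus strand): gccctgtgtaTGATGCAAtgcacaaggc
Pck2 (chr14:55540153-55540180, minus strand): tgtaagatacTGATGTAActttgaaggc
Vldlr (chr19:27216810-27216837, minus strand): ctaggagcgcTGATGCAActattgctgc
Gars (chr6:55037961-55037988, minus strand): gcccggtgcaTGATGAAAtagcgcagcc
Iars (chr13:49682127-49682154, minus strand): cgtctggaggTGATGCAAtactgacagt
Yars (chr4:129189896-129189923, plus strand): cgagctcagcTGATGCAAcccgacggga
Slc7a11 holds the element on both strands, close enough that its 2 stretches overlap. Among the 14 genes the change between 6h and 24h ran from 0.11 for Aars to 1.47 for Atf3, and genes without the element in this window, such as Ddit3 at 1.01, were in the same range. The whole promoters of Trib3 and Chac1 are given next, on the strand of the gene, with the element in capitals. In both it reads in the reverse orientation.
Trib3 (chr2:152344011-152344310, minus strand): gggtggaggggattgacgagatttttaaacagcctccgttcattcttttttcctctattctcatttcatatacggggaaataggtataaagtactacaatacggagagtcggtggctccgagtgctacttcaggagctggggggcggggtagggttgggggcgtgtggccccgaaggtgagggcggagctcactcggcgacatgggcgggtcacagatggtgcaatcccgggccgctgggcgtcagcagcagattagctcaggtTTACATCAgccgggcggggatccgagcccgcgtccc
Chac1 (chr2:119350992-119351291, plus strand): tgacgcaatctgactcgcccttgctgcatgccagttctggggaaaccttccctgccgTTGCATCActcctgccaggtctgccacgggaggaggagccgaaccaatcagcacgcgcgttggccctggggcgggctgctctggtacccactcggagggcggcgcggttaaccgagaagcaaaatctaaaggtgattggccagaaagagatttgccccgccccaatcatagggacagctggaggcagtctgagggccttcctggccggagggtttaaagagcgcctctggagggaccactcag

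Immediate early genes, which cells switch on within minutes of many stimuli without new protein synthesis, rose beyond Egr1 and Jun. Of 26 listed and 24 tested, 17 were higher and 0 lower (70.8%), with a median of 0.48. Of the AP-1 genes 7 of 9 rose. Fosb had 0.286 and 0.315 CPM at 6h and 2.73 and 3.75 CPM at 24h, and Fos went from 0.429 and 0.551 CPM to 1.70 and 2.02 CPM. Ier2 went from 89.7 and 93.2 CPM to 150 and 152 CPM (0.72 ± 0.05), and Zfp36, which destabilises cytokine messengers, from 28.5 and 27.7 CPM to 46.5 and 51.7 CPM (0.81 ± 0.06). Dusp1, a phosphatase of MAP kinases, rose by 1.49 ± 0.16. Myc changed by -0.05 ± 0.04 and was not called. Genes that damp ERK signalling moved apart: Spred3 rose by 0.98 ± 0.17, whereas the ERK-responsive factors Etv5 and Etv4 fell by 0.81 and 0.62 and the phosphatase Dusp6 by 0.35. The call of Etv4 was lost in DESeq2 and without 6h replicate 2 (-0.59) or 24h replicate 1 (-0.41). That of Dusp6 was lost in DESeq2 and without 6h replicate 1 (-0.20) or 24h replicate 1 (-0.34), and the fall of Etv5 was 0.53 without 6h replicate 1. Of 11 ERK feedback genes tested 2 rose (18.2%, near the 17.3% of all genes) and 4 fell (36.4%, against 16.1%). There was 1 rise without any 1 of the 4 libraries of 6h and 24h and in DESeq2. There were 2 falls without 6h replicate 1 or 24h replicate 1, and 1 in DESeq2.

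Late neutrophil genes rose as a group, while primary granule and progenitor genes moved both ways. Of 22 late genes listed, 21 were tested. Of these 15 were higher (71.4%, against 17.3% of all genes) and 0 lower, with a median of 0.54. Beside Ly6g, the secondary granule protein Ngp went from 37.2 and 39.4 CPM to 59.0 and 60.7 CPM (0.64 ± 0.06), and Padi4, which citrullinates histones in neutrophils, from 74.7 and 77.6 CPM to 111 and 111 CPM (0.54 ± 0.05). Cybb, the large subunit of the phagocyte oxidase, was at 1.77 and 1.53 CPM, 2.31 and 1.92 CPM at 12h and 9.58 and 9.69 CPM at 24h, so nearly all of its rise of 2.55 ± 0.17 lay after 12h. The matrix protease Mmp9 likewise stood at 1.15 and 0.826 CPM at 6h, 0.505 and 1.04 CPM at 12h and 2.54 and 2.46 CPM at 24h. The granule genes Ltf, Camp and Lcn2 rose by 0.84 ± 0.16, 0.52 ± 0.20 and 0.35 ± 0.14, and the calcium-binding proteins S100a8 and S100a9 by 0.34 ± 0.08 and 0.47 ± 0.07. Mmp8 at -0.45 ± 0.27 and Cxcr2 at -0.68 ± 0.39 were not called. Stfa1, Stfa2 and Stfa3 are near-identical copies between which reads may be split, and their values are uncertain.

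Of 14 tested primary granule and granulocyte progenitor genes, 3 were higher (21.4%) and 5 lower (35.7%), against 17.3% and 16.1% of all genes. The protease gene Prtn3 fell from 330 and 356 CPM to 277 and 275 CPM (-0.32 ± 0.05), Elane by 0.20 and Ctsg by 0.18, whereas Nkg7 rose by 0.84 ± 0.12, Prss57 by 0.52 ± 0.08 and Mpo by 0.20 ± 0.06. The late genes' promoters are shown by that of Ly6g below, on the strand of the gene, in which capitals mark GAGGAAG, a core sequence bound by PU.1. This sequence was found on either strand in 6 of 15 promoters of the risen late genes, in 13.8% of promoters of genes tested and in 13.6% of all promoters. It was in 14.6% of promoters of all genes called higher and 14.8% of those called lower. The median GC content was 50.7% in the 15 promoters and 60.7% over those of genes tested. The list was made of known neutrophil genes, so its own share cannot separate the rise from membership.
Ly6g (chr15:75155011-75155310, plus strand): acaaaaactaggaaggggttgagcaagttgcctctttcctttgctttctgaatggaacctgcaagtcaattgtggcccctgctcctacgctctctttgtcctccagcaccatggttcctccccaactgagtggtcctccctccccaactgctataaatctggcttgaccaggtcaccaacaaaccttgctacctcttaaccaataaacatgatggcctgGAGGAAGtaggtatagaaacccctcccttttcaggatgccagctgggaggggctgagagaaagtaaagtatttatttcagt

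Monocyte and macrophage genes were mixed, with 12 of 28 tested members higher (42.9%) and 4 lower (14.3%), out of 40 listed. Over all genes tested the shares were 17.3% and 16.1%, so the falls were near that share. The receptor Tlr2, which senses bacterial lipoproteins, went from 8.07 and 8.46 CPM to 18.6 and 19.3 CPM (1.20 ± 0.10). The matrix proteoglycan Vcan went from 10.8 and 10.8 CPM to 20.9 and 21.4 CPM (0.97 ± 0.09). The largest change was that of Maf, a macrophage transcription factor, but at very low levels: 0.0477 and 0.0787 CPM at 6h and 0.530 and 0.606 CPM at 24h. Ly6c2, a monocyte surface antigen, went from 1009 and 1097 CPM to 1339 and 1394 CPM (0.38 ± 0.04). In the other direction the Fc receptor Fcgr3 fell from 198 and 205 CPM to 148 and 161 CPM (-0.38 ± 0.04) and the macrophage marker Adgre1 by 0.46. Csf1r, the receptor of the macrophage growth factor, rose by 1.03 ± 0.36 but remained at 1.51 and 1.13 CPM. The complement genes C1qa, C1qb and C1qc and the chemokine receptor Cx3cr1 did not pass the filter.

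Mast cell and basophil genes fell where they were called. Of 14 listed and 7 tested, 0 were higher and 4 lower (57.1%, against 16.1% of all genes), with a median of -0.46. Beside Mcpt8, the carboxypeptidase Cpa3 went from 34.0 and 33.1 CPM to 24.0 and 24.8 CPM (-0.46 ± 0.07), the inhibitory receptor Milr1 from 38.5 and 39.0 CPM to 24.1 and 26.0 CPM (-0.63 ± 0.07), and the histidine decarboxylase Hdc fell by 0.21. Kit at -0.01 ± 0.05 and Gata2 at 0.02 ± 0.05, which progenitors express too, were not called. The defining genes Fcer1a, Prss34, Cma1 and Tpsb2 did not pass the filter, and whether a few such cells contribute was not tested. Among 16 tested stem and progenitor genes 4 rose and 6 fell. Cd34 and the growth factor Angpt1 fell, Angpt1 by 0.36, whereas the surface receptor Cd27 rose from 0.716 and 0.472 CPM to 1.89 and 1.82 CPM and Flt3 at 0.06 ± 0.08 was not called.

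Transcription factors of the myeloid lineage showed no common direction, with 10 higher (35.7%) and 6 lower (21.4%) of 28 tested. Over all genes tested the shares were 17.3% and 16.1%. Cebpb rose by 0.35 ± 0.06 and Cebpg by 0.30 ± 0.05. For Cebpb the 24h libraries differed, at 134 and 111 CPM, and its rise was 0.20 without 24h replicate 1. Tfec, of the MITF family, fell from 72.8 and 70.2 CPM to 47.5 and 46.4 CPM and Etv6 from 196 and 187 CPM to 159 and 162 CPM. Spi1, which encodes PU.1, fell by 0.11, and Cebpa at -0.08 ± 0.04 and Cebpe at -0.06 ± 0.06 were not called. The count of lower factors was 12 with the mean gene centred and 3 in DESeq2.

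The leukaemia's own programme did not move in 1 direction. Of 23 tested genes of the MLL-AF9 programme, 6 were higher (26.1%) and 7 lower (30.4%), with a median of -0.03. Over all genes tested the shares were 17.3% and 16.1%. Within it, 5 of 10 HOXA genes rose and 0 fell: Hoxa2 went from 1.43 and 1.22 CPM to 6.78 and 6.95 CPM (2.38 ± 0.19), Hoxa6 rose by 0.42 ± 0.07 and Hoxa9, a main effector of the fusion, by 0.16 ± 0.04. The cofactor Meis1 fell by 0.16, Mef2c by 0.44 and Eya1 by 0.32, while Myb at -0.03 ± 0.04 and Cdk6 at -0.10 ± 0.05 were not called. The count of falls was 4 without either 24h library.

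Other Krüppel-like factors rose more often than they fell, 7 (41.2%) against 1 (5.9%) of 17 tested with the SP factors. The shares were 17.3% and 16.1% over all genes tested. Klf2, which keeps lymphoid and endothelial cells quiescent, went from 4.39 and 4.49 CPM to 15.3 and 14.6 CPM at 12h and 12.4 and 12.0 CPM at 24h (1.46 ± 0.12). Klf6 went from 11.4 and 13.4 CPM to 22.1 and 23.2 CPM (0.85 ± 0.09). Klf3, a repressor that recruits CtBP, stood at 9.90 and 10.3 CPM at 0h, 52.1 and 47.7 CPM at 6h and 68.7 and 74.4 CPM at 24h (0.52 ± 0.06), and Klf13 rose by 0.33 ± 0.05. Klf11 fell by 0.48. None of the 5 tested SP genes was called. DESeq2, the centred correction and the fits without 6h replicate 2 or 24h replicate 2 each called 4 rises in place of 7. On either strand, the GC form GGGCGTG of the KLF site was in 14.8% of promoters of genes called higher. It was in 15.2% of those called lower and 14.9% of those of genes tested. The GT form GGGTGTG was in 10.2%, 8.29% and 8.62% of these sets. For genes at least 2-fold higher the shares were 8.24% for the GC form and 12.4% for the GT form. These differences were not tested.

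Ribosome biogenesis was the gene group with the most members lower at 24h. All 58 listed genes of ribosome biogenesis and MYC targets were tested, 42 (72.4%, against 16.1% of all genes) were lower and 3 higher, with a median of -0.16, so that most falls were small. Of 40 nucleolar genes 32 fell. Fbl, the methyltransferase of ribosomal RNA, went from 237 and 241 CPM to 202 and 181 CPM (-0.32 ± 0.04), and Gar1, of the pseudouridylation particle, from 130 and 129 CPM to 107 and 88.1 CPM (-0.41 ± 0.06). Nop2, Utp20 and Tsr1 fell by 0.29, 0.25 and 0.32, and Ncl, the main nucleolar protein, by 0.24. Of 11 metabolic MYC targets 8 fell, among them the purine enzyme Gart, from 313 and 314 CPM to 255 and 248 CPM. Within the MYC network Mxd4, an antagonist of MYC, fell by 0.45 while Mxd1 and Mxi1, also antagonists, rose by 0.24 ± 0.08 and 0.29 ± 0.06. The number lower was 33 to 49 over the alternatives other than the test against a fold of 1.5, which called 0 of them.

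The MYC-binding E-box CACGTG, which reads the same on both strands, was found in 13 of 47 promoters (27.7%) of the fallen members. By gene it was in at least 11 of 37 with a promoter, since promoters of a single chromosome were left out of the 11. The share was 9.91% over promoters of genes tested and 7.15% over all promoters. It was 12.4% over promoters of all genes called lower and 9.53% over those of genes not called. The list was made in part of known MYC targets, so its own share cannot separate the fall from membership. The stretches below belong to the 4 of these 11 genes with the largest falls, with the E-box in capitals and up to 10 bases on either side.
Mxd4 (chr5:34187914-34187939, minus strand): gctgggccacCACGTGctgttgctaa
Nop2 (chr6:125131813-125131838, plus strand): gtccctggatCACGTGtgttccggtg
Utp20 (chr10:88826765-88826787, minus strand): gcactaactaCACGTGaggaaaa
Tsr1 (chr11:74898094-74898119, plus strand): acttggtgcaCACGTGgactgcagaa
The stretch of Utp20 is shorter because the E-box lies close to the end of the promoter window. Their log2 changes were -0.45, -0.29, -0.25 and -0.32.

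Of 76 tested mitochondrial ribosomal proteins 36 were lower (47.4%) and 1 higher (1.3%), with a median of -0.14. The shares were 16.1% and 17.3% over all genes tested. Mrpl11 went from 51.8 and 55.7 CPM to 41.0 and 39.5 CPM (-0.42 ± 0.06), and Mrpl41 from 57.8 and 58.3 CPM to 45.5 and 42.7 CPM (-0.39 ± 0.06). Nuclear genes of oxidative phosphorylation were lower for 29 of 77 tested (37.7%) and higher for 2 (2.6%), with a median of -0.11. Sdhd of complex II fell from 211 and 221 CPM to 174 and 173 CPM (-0.31 ± 0.04), and Ndufs3 of complex I from 69.0 and 73.7 CPM to 59.3 and 55.2 CPM (-0.32 ± 0.05). This count rested on single libraries: it was 51 without 6h replicate 1, 11 without 6h replicate 2 and 15 without 24h replicate 2. For the mitochondrial ribosome it was 22 without 24h replicate 2. The 13 genes encoded by mitochondrial DNA gave 0 rises and 2 falls (15.4%, near the 16.1% of all genes). These falls were mt-Nd4 at -0.14 ± 0.04 and mt-Cytb at -0.12 ± 0.04. The call of mt-Nd4 was lost without 24h replicate 2 (-0.12), and that of mt-Cytb without 6h replicate 2 (-0.10) or 24h replicate 1 (-0.06). Cytosolic ribosomal proteins had 1 higher and 4 lower of 84 tested and a median of -0.03, but 46 lower without 6h replicate 1, and 1 lower and 18 higher without 6h replicate 2, so no direction is given for them.

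Most chaperones of the endoplasmic reticulum (ER) fell, 12 of 15. Of 32 genes of the ER unfolded protein response 18 were lower (56.2%) and 5 higher (15.6%), with a median of -0.14. The shares were 16.1% and 17.3% over all genes tested, so the rises were near that share. Calr, a calcium-binding chaperone of the ER, went from 2756 and 2812 CPM to 1952 and 1985 CPM (-0.50 ± 0.04, edgeR adjusted p = 3.12e-12). Pdia6, a disulphide isomerase, went from 486 and 477 CPM to 406 and 393 CPM (-0.27 ± 0.04). Hspa5, the main ER chaperone, fell by 0.14, and 5 of 6 translocon genes fell. The ER-associated degradation gene Sel1l rose by 0.27 ± 0.04, while Xbp1 at -0.04 ± 0.04 and the eIF2 kinase gene Eif2ak3 at -0.08 ± 0.06 were not called. Cytosolic heat shock genes gave 14 lower and 1 higher of 27 tested, with Cct3 of the chaperonin ring at -0.27 ± 0.04 and Dnajb1 at -0.27 ± 0.05. Without 24h replicate 1 the number of heat shock genes lower was 9, and without 6h replicate 1 the number of ER genes higher was 3.

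Antioxidant genes, many of them NRF2 targets, were lower for 13 of 21 tested (61.9%) and higher for 3 (14.3%, near the 17.3% of all genes). Prdx1, a peroxiredoxin, went from 246 and 264 CPM to 189 and 200 CPM (-0.39 ± 0.04), and catalase (Cat) from 159 and 159 CPM to 125 and 138 CPM. Slc7a11, 1 of the 3 that rose, is on the stress response list too. Of iron genes, 5 of 13 fell (38.5%) and 2 rose (15.4%), against 16.1% and 17.3% of all genes. The ferritin chains Ftl1 and Fth1 fell by 0.42 and 0.27 and the transferrin receptor Tfrc by 0.23, whereas Slc11a1 rose.

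Most cholesterol synthesis genes rose, 14 of 20. Of 28 genes of synthesis and uptake, all tested, 17 were higher (60.7%) and 3 lower (10.7%), with a median of 0.24. The shares were 17.3% and 16.1% over all genes tested. Fdft1, the squalene synthase, went from 36.1 and 39.4 CPM to 65.0 and 69.3 CPM (0.83 ± 0.06, edgeR adjusted p = 3.63e-13). Mvd of the mevalonate pathway went from 42.3 and 44.4 CPM to 68.5 and 67.0 CPM (0.64 ± 0.06), and Msmo1 from 68.2 and 73.1 CPM to 102 and 112 CPM (0.60 ± 0.05). Among the falls were the sterol isomerase Ebp, by 0.23, and the ubiquitin ligase Mylip, by 0.33. Without 6h replicate 2 there was 1 fall in this list. Of 9 sterol export and LXR targets 5 rose (55.6%) and 2 fell (22.2%). Scd2, a fatty acid desaturase, went from 935 and 938 CPM to 1241 and 1307 CPM (0.44 ± 0.04), Apoe rose by 0.57 ± 0.12, and Lpcat3 fell by 0.16. The rises were 3 without any 1 of both 0h libraries, both 12h libraries or 24h replicate 2. There was 1 fall without 6h replicate 2, either 12h library or either 24h library, with the 4 libraries alone and in DESeq2.

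Of 10 hypoxia-inducible genes 8 rose and 1 fell. Vegfa, the vascular growth factor, went from 48.4 and 55.2 CPM to 98.9 and 99.2 CPM (0.93 ± 0.05), and Bnip3, a mitophagy receptor, from 21.4 and 22.2 CPM to 42.5 and 37.5 CPM (0.87 ± 0.07). P4ha1, a collagen prolyl hydroxylase, rose by 0.59 ± 0.05. Egln3, a HIF prolyl hydroxylase, fell from 90.2 and 93.2 CPM to 67.7 and 69.4 CPM (-0.42 ± 0.05). Of 23 glycolysis genes 6 were higher and 3 lower, and Gapdh at 0.06 ± 0.04 was not called. Falls over both roles, 4 in all, were 1 without 6h replicate 2 and 2 without 24h replicate 2.

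Cell cycle genes split by phase. Of 61 mitosis genes 32 were higher (52.5%, against 17.3% of all genes) and 2 lower, with a median of 0.13. Spag5, a spindle protein, went from 94.3 and 96.3 CPM to 123 and 125 CPM (0.38 ± 0.04), Kif23, a motor of cytokinesis, from 51.6 and 52.0 CPM to 65.9 and 69.1 CPM (0.38 ± 0.05), and the phosphatase Cdc25b rose by 0.56 ± 0.07. Cdk1 at -0.01 ± 0.04 and Ccnb1 at -0.03 ± 0.04 were not called, and Cdc20 fell by 0.23. Of 52 genes of G1-S and DNA replication 23 were lower (44.2%, against 16.1% of all genes) and 3 higher, with a median of -0.12. Uhrf1, which keeps DNA methylation through replication, went from 403 and 405 CPM to 343 and 328 CPM (-0.27 ± 0.04), and the helicase subunits Mcm2 to Mcm7 fell by 0.15 to 0.21. The mitotic rise was the less secure: it was 18 without 24h replicate 2 and 16, with 8 falls, when the mean gene was centred. The median of mitosis genes was above 0 in all of these.

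Cell cycle inhibitors, p53 targets and survival genes moved in both directions, against 17.3% higher and 16.1% lower over all genes tested. Of 12 genes of CDK inhibitors, D cyclins and partners 3 rose and 2 fell. Cdkn2d rose by 0.31 ± 0.06, Cdk4 fell from 340 and 364 CPM to 305 and 293 CPM, and Cdkn1a, a main target of p53, fell by 0.12. Of 25 p53 targets 3 rose and 10 fell. Ccng1 went from 469 and 445 CPM to 320 and 323 CPM (-0.51 ± 0.04) and Bax, which permeabilises mitochondria, from 201 and 213 CPM to 170 and 154 CPM (-0.36 ± 0.05). The members that rose, Sesn2, Gdf15 and Ddb2, included 2 that are also on the stress response list. In the BCL2 family 3 of 16 rose and 2 fell, with the BH3-only gene Bcl2l11 at 0.41 ± 0.10 and Mcl1 at 0.04 ± 0.04, the latter not called. Without 24h replicate 1 there was 1 rise in the BCL2 family and 1 among the CDK inhibitors and cyclins.

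Several adhesion and calcium-binding genes rose. Itgb7, an integrin chain for homing to gut, stood at 56.4 and 59.5 CPM at 0h, 131 and 138 CPM at 6h and 280 and 279 CPM at 24h, a further 2.08-fold rise (1.05 ± 0.04, edgeR adjusted p = 7.55e-21). Itgal, the alpha chain of LFA-1, went from 145 and 144 CPM to 208 and 202 CPM (0.50 ± 0.04). In all, 11 of 29 tested integrin and adaptor genes rose (37.9%) and 5 fell (17.2%), against 17.3% and 16.1% of all genes. When the mean gene was centred 7 rose and 11 fell. Leaving out any 1 of the 4 libraries of 6h and 24h left 3 falls. Of the S100, annexin and Ahnak genes 9 of 17 rose and 2 fell. Anxa1, an anti-inflammatory annexin of neutrophils, went from 37.0 and 40.6 CPM to 84.6 and 85.5 CPM (1.13 ± 0.06), and S100a6 from 9.54 and 10.6 CPM to 22.7 and 24.6 CPM (1.23 ± 0.09).

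Tubulin genes fell: 10 of 14 were lower (71.4%, against 16.1% of all genes) and 0 higher, with a median of -0.36. Tuba1a went from 99.8 and 104 CPM to 112 and 106 CPM at 12h and 75.1 and 76.5 CPM at 24h (-0.42 ± 0.05). Tubb2a, from 45.3 and 53.4 CPM to 31.8 and 31.1 CPM, fell by 0.65, and Tubb2b, by 1.74, to 1.48 and 1.70 CPM at 24h. Reads of such similar genes may be split between them by the counting. Tubb5 at -0.04 ± 0.04 was not called.

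Signalling and immune lists moved in both directions. Among 25 TGF-beta and SMAD genes 9 rose and 3 fell, with Tgfbi, a secreted matrix protein, at 1.40 ± 0.21 and Id1 at -0.40 ± 0.06. Of 32 growth factor and cytokine receptors 6 rose and 5 fell, shares (18.8% and 15.6%) near those over all genes tested (17.3% and 16.1%). Igf2r, which clears IGF2, went from 172 and 166 CPM to 216 and 223 CPM (0.38 ± 0.04), and Csf2rb2 fell by 0.30. Of 7 tested chemokines Ccl9 fell by 0.44 while Ccl3 rose by 0.48 ± 0.10 and Cxcl2, at 0.0477 and 0.118 CPM and then 0.606 and 0.888 CPM, was called higher too. Interferon-stimulated genes were 2 higher and 8 lower of 36 tested, and 5 were lower without 24h replicate 1, with Cmpk2 at -0.60 ± 0.09 and Irf1 at -0.11 ± 0.08, the latter not called. MHC class I genes were 1 higher and 7 lower of 15, with Psmb10 at -0.31 ± 0.06, and 3 were lower without 6h replicate 2 or 24h replicate 2. MHC class II genes were 3 higher and 1 lower of 11, with 1 higher without 6h replicate 2 or 24h replicate 2. Of lysosomal genes 13 were higher and 8 lower of 47, with Ctss at 0.81 ± 0.14 and Cd63 at -0.39 ± 0.04. The lysosomal split turned to 8 higher and 16 lower when the mean gene was centred.

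**Figure D4:**
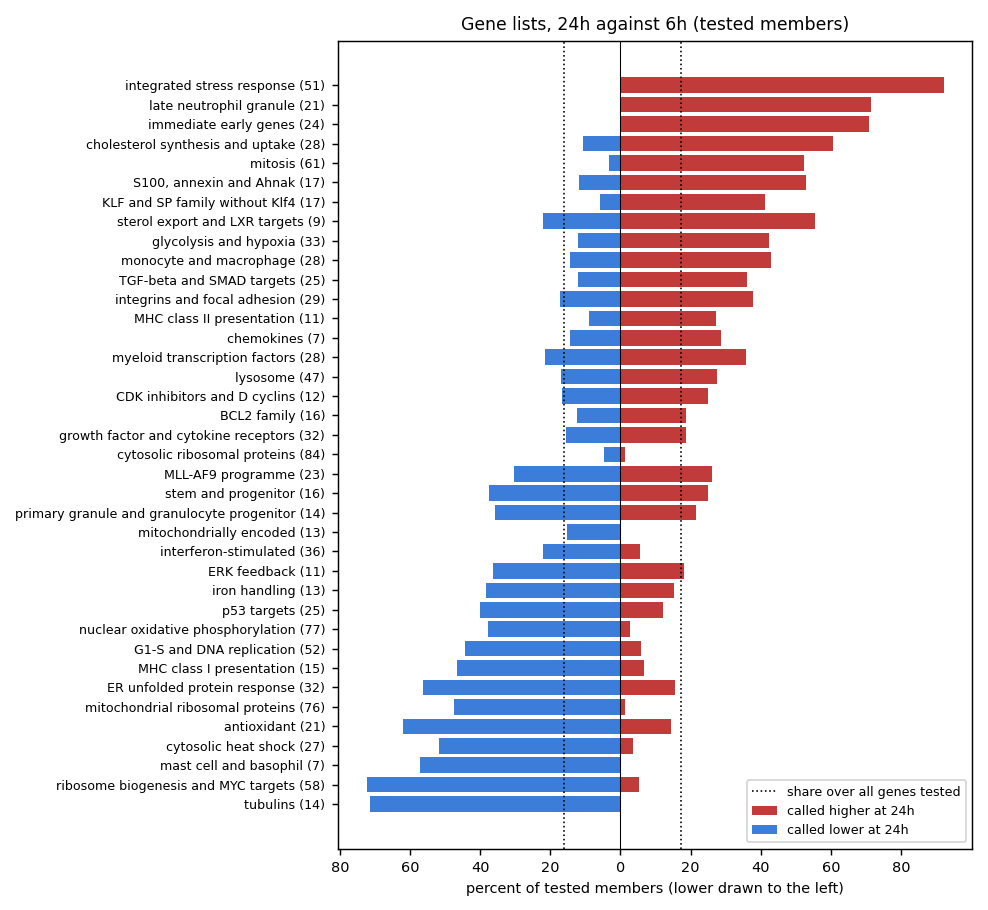
Share of tested members of each gene list called higher (red, to the right) or lower (blue, to the left) at 24h against 6h, in percent, with the number tested in brackets and dotted lines at the shares over all genes tested (17.3% and 16.1%). The integrated stress response reaches 92.2% higher, and ribosome biogenesis and tubulins 72.4% and 71.4% lower.

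Some genes went from almost no counts to a clear signal. Of 47 genes tested that had at most 3 counts over both 6h libraries, 45 were called higher, a count fixed largely by their passing the filter through later libraries. The 5 with most counts at 24h, predicted genes left out, were Kcnab3, Fn1, Slurp1, Ptgs2 and Stmn2. Kcnab3, a potassium channel subunit, had 1 and 2 counts at 6h and 72 and 67 at 24h, a ratio per total of 42.9 (95% interval 14.4 to 210.4, counting error only). Fn1, the matrix protein fibronectin, had 0 and 2 counts and then 64 and 59, a ratio of 56.9 (15.4 to 475). At 12h it had 4 and 3 counts, so nearly all of its rise lay after 12h. The stromal collagen gene Col1a1 had 2 and 1 counts at 6h and 4 and 2 at 24h, and the 6 stromal markers summed to 0.430 and 0.545 CPM at 6h and 0.269 and 0.246 CPM at 24h. Slurp1, a secreted protein of the Ly6 family, had 0 and 2 counts and then 52 and 43, a ratio of 44.0 (11.8 to 368). Ptgs2, the inducible cyclooxygenase, had 2 and 1 counts and then 29 and 54, a ratio of 25.6 (8.46 to 127), with 8 and 9 counts at 0h. Stmn2, a microtubule-destabilising protein, had 2 and 1 counts and then 40 and 42, a ratio of 25.3 (8.36 to 125).

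The 12h libraries, at 114 and 111 CPM of Klf4, were set against the midpoint of 6h and 24h on the log2 scale, to see on which side of midway each gene stood. Both comparisons use the 6h and 24h libraries, with weights chosen so that neither fixes the other. Of 14263 genes 621 (4.35%) were called, 379 above the midpoint (2.66%) and 242 below (1.7%). The count depended on single 12h libraries, at 206 calls when replicate 1 of 12h was left out and 100 when replicate 2 was. Egr1 stood at 16.2 and 18.5 CPM and Jun at 20.3 and 21.5 CPM at 12h, above the midpoint by 2.4 ± 0.14 and 1.3 ± 0.09 (log2, SE), so that most of their rise came before 12h. Scd1, a fatty acid desaturase, was highest at 12h, at 21.3 and 19.7 CPM between 8.26 and 10.3 CPM and 15.4 and 13.8 CPM, 0.81 ± 0.08 above. Mroh2a was at 24.4 and 24.9 CPM at 12h, already level with 22.9 and 24.7 CPM at 24h, and Tubb3 was 0.67 ± 0.10 above.

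Thbs1, the adhesive glycoprotein thrombospondin, went the other way: it dipped to 62.3 and 63.8 CPM at 12h from 75.5 and 77.2 CPM and then reached 139 and 143 CPM at 24h, -0.72 ± 0.04 from the midpoint (edgeR adjusted p = 3.86e-14). Cd300lf, an inhibitory myeloid receptor, dipped likewise to 5.85 and 6.14 CPM between 8.11 and 8.10 CPM and 12.2 and 12.0 CPM. Zbtb26 had fallen to 5.51 and 6.02 CPM by 12h and stood at 7.00 and 7.55 CPM at 24h. Ccl6, a chemokine, was at 10.4 and 9.57 CPM at 12h, -0.51 ± 0.09 from the midpoint, and its call was lost without 12h replicate 2 (-0.45). The value of Rn7sk, a small nuclear RNA, rested on 1 library: it stood at 11.2 and 2.76 CPM at 12h, its call was lost in DESeq2 and without 12h replicate 2 (-0.30), and it was -2.33 without 12h replicate 1.

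Gene groups differed in where 12h stood, beside 2.66% of all genes tested called above the midpoint and 1.7% below. The course also differed by direction over all called genes. Of the 2470 genes called higher at 24h, 8.8% were called above the midpoint and 1.2% below. Of the 2295 called lower, 1.6% were above and 5.4% below. Called or not, 12h lay above the midpoint for 70.0% of the former and 34.2% of the latter. In cholesterol synthesis and uptake 11 of 28 genes were above the midpoint and 0 below, with a median of 0.11. Mitosis genes gave 13 of 61 above and 0 below, and G1-S genes 10 of 52 above and 0 below, with medians of 0.10 and 0.07. Immediate early genes gave 9 of 24 above and 1, Myc, below. Ribosome biogenesis and MYC targets gave 0 of 58 above and 26 below, with a median of -0.12, and 23 of these were nucleolar. The integrated stress response gave 2 above, Ppp1r15a and Chac1, and 7 below, among them Cth at -0.30 ± 0.06 and Trib3 at -0.17 ± 0.05, with a median of -0.05. Without 12h replicate 1 and without 12h replicate 2, respectively, cholesterol genes above were 5 and 1, mitosis genes above 2 and 2, G1-S genes above 1 and 1, immediate early genes above 8 and 7, ribosome biogenesis genes below 8 and 2, and stress response genes below 2 and 1. Their medians moved less: that of ribosome biogenesis was -0.12 and -0.11, and that of cholesterol genes 0.12 and 0.10.

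**Figure D5:**
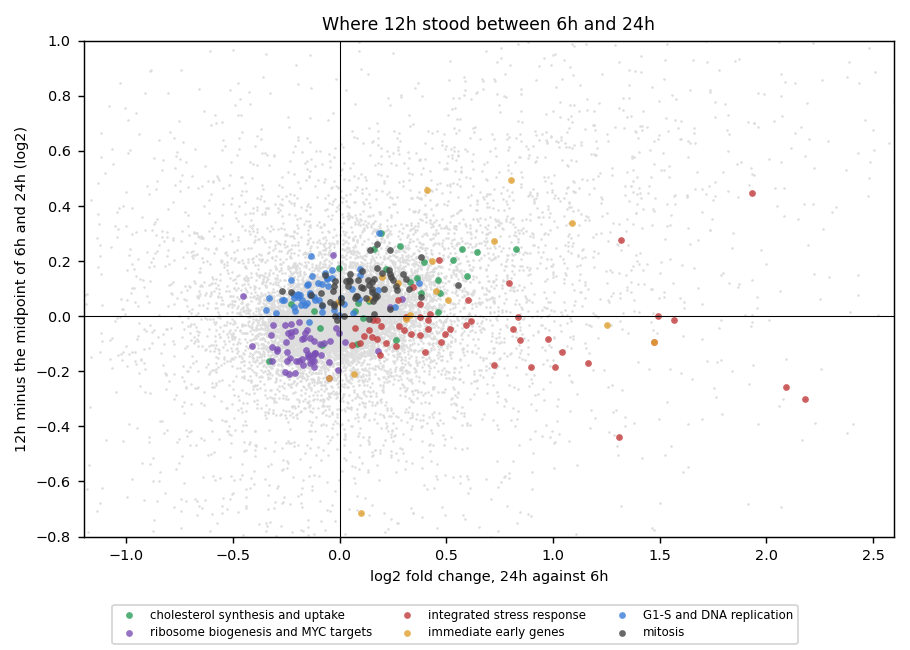
Log2 fold change of 24h against 6h (horizontal axis) and 12h minus the midpoint of 6h and 24h (vertical axis, log2), 1 point per gene, grey for all genes tested and coloured for members of 6 lists. Axes are limited to -1.2 to 2.6 and -0.8 to 1.0, so Egr1, Jun and other extreme genes lie outside. Ribosome biogenesis genes gather left of and below the origin, and cholesterol and mitosis genes mostly right of and above it. Of all genes called higher 70.0% had 12h above the midpoint, and of those called lower 34.2% did.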

How the data were processed

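RNA sequencing counts of 8 libraries were used, with the 4 of 6h and 24h compared and those of 12h placed between them. Each library has a table of raw read counts per gene, which the authors deposited. Per the submitters' processing notes, STAR, SAMtools 1.3 and HTSeq 2.0.3 were used on mm10. The strand setting, STAR version and annotation release were not given in the sources used here, so overlapping and antisense genes may share reads. Of 47069 gene rows, 46574 identifiers matched GENCODE M21. The 5 summary rows were left out.

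Genes were filtered with filterByExpr, scaled by TMM and fitted with edgeR 4.0.16 (R 4.3.3) over all 8 libraries, with time as the only factor. The quasi-likelihood test was adjusted by Benjamini and Hochberg over 14263 genes, and called means an adjusted p under 0.05. SEs are the log2 fold change divided by the square root of F. The 4 libraries alone, DESeq2 1.42.0, other filters and scalings, thinning and leaving out each library were alternatives. In simulated counts for 14012 genes, 50 genes were changed for each fold between 6h and 24h. Of genes changed 1.25, 1.5, 2 and 4-fold, 72%, 90%, 94% and 100% were called, and 6 unchanged genes were called too. The changed genes left out those of low counts, and all genes were given the same spread between replicates. The rates therefore do not cover low genes or genes with a larger spread.

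The members and gene lists were chosen with earlier results of these data known. Genes named by rule are Klf4, the 14 largest rises and falls among well expressed genes whose libraries do not overlap (predicted genes and pseudogenes left out), up to 4 members per list with the smallest adjusted p, the 5 farthest on each side of the midpoint, and the 5 described from near 0. Other list members and regions were named after their values were seen. Some list members are counted but not reported here by name. Deviations of same-numbered libraries from their time means had correlations from -0.02 to 0.02 over all genes tested. Every gene had equal weight there, so noise of low genes can hide a shared origin. Pairing was therefore not excluded, and the main fit did not use it.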

Additional observations from a re-analysis of the deposited data

How the results depend on the processing

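The number of genes called in 24h against 6h was 4765, and it was 3160 in DESeq2 and 319 in the test against a fold of 1.5. Genes called higher were 2470, and 1562 and 293 in these. Genes called lower were 2295, 26 in the fold test and 4166 with the mean gene centred. Without each library in turn, calls ran from 3480 to 4688, rises from 1804 to 2427 and falls from 1639 to 2296. The 4 libraries alone gave 4332 calls (2324 higher, 2008 lower), and no filter on low counts 4803. Genes at least 2-fold higher and lower, 578 and 86, were 127 and 17 when genes with mean log2 CPM under 1 were left out, and 342 and 40 in DESeq2. For 12h against the midpoint, 621 calls became 252 in DESeq2, 5 in the fold test and 1113 with the mean gene centred, and 100 to 851 without each library in turn. Where fewer libraries or a fold bound were used, that is the alternative's own construction, and elsewhere the cause was not tested. The fit with replicate number as a block gave 4629 calls, and 576 for the midpoint. The labels do not say whether the numbers pair samples. The 4 libraries alone and the thinned counts give no value for 12h. Of 3376 values of 169 named genes under 19 alternatives, 3194 kept their side of the threshold, 182 lost the call (48 of them outside the fold test, in 19 results) and 0 reversed. Replication of 2 libraries a time and counts near 3 limit what low genes can show.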

Other observations

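Some rises lay beside each other on the chromosome, a pattern picked out after the values were seen. In the Ly6 region of chromosome 15, Slurp1 rose by 5.26 ± 0.61, Lypd2 by 4.17 ± 0.25, Ly6g by 2.83 ± 0.10, Ly6c2 by 0.38 ± 0.04 and Ly6e by 0.23 ± 0.04 on the log2 scale. In the same region Ly6k fell by 0.37, whereas Lynx1 at 0.08 ± 0.19, Them6 at 0.01 ± 0.07 and Jrk at -0.23 ± 0.11 were not called. Lypd2 stood at 0.334 and 0.511 CPM at 6h and 7.42 and 8.24 CPM at 24h, and Ly6k at 41.6 and 49.5 CPM and 38.3 and 32.5 CPM. The pseudogene I830127L07Rik, in the same region, rose by 3.26 ± 0.09, from 4.82 and 5.27 CPM to 46.6 and 50.8 CPM. Several Ly6 genes are close copies between which reads may be split. On chromosome 7, Lsp1 and Igf2 both rose, at 2.19 ± 0.08 and 1.92 ± 0.11, while Mrpl23 between them was at 0.02 ± 0.06, not called, and Ctsd beside them fell by 0.14.

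By gene type, 64 of 382 tested antisense genes were higher and 15 lower (16.8% and 3.93%). Of 12077 protein coding genes 2139 were higher and 2205 lower (17.7% and 18.3%), and of 330 lincRNA genes 38 and 25. The counting's strand setting is not given in the sources used here, so reads of an antisense gene and its partner cannot be told apart.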
